A study of Mus musculus with 8 samples.

Results

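The troponin and tropomyosin genes *Tnni1*, *Tnni3*, *Tnnt1*, *Tnnt2*, *Tnnc1* and *Tpm1* were examined for the histone mark H3K27Ac in neonatal mouse ventricles with and without *Arid1a* in cardiomyocytes. Their peaks are those whose centre lies nearest to a curated RefSeq transcription start of 1 of these 6 genes. By this rule, 17 of the 45987 H3K27Ac peaks in the deposited table belong to them, at 5 for *Tnni1*, 1 for *Tnni3*, 1 for *Tnnt1*, 4 for *Tnnt2*, 1 for *Tnnc1* and 5 for *Tpm1*.

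H3K27Ac, the acetylation of lysine 27 of histone H3, marks active promoters and enhancers and was measured by ChIP-Seq in whole ventricles at postnatal day 7 (P7). The control group (*Arid1a f/f*, 2 H3K27Ac libraries) had both *Arid1a* alleles floxed but no Cre, and the *Arid1a cKO* group (*αMHC-Cre;Arid1a f/f*, 2 H3K27Ac libraries) had the same alleles and a Cre transgene driven by the αMHC promoter, which is active in cardiomyocytes. ARID1A belongs to the SWI/SNF complex, which remodels nucleosomes, and the study asked how its loss alters the chromatin of maturing cardiomyocytes. Each group also had 2 input libraries, which served the authors' peak calling. Non-cardiomyocytes of the ventricle keep *Arid1a* in this model and contribute to every library.

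Troponin and tropomyosin form the calcium switch of the thin filament. Tropomyosin lies along actin and covers the sites that myosin binds, troponin T ties the troponin complex to tropomyosin, troponin I holds the complex in its inhibitory position, and troponin C binds calcium and releases the inhibition. The heart exchanges some of these proteins during maturation, and the best known exchange is that of the slow skeletal troponin I encoded by *Tnni1*, which is abundant in the fetal heart, for the cardiac troponin I encoded by *Tnni3*. Slow skeletal troponin T (*Tnnt1*) is likewise a gene of slow muscle and the early heart, while *Tnnt2* encodes cardiac troponin T, *Tnnc1* the troponin C of heart and slow muscle, and *Tpm1* α-tropomyosin.

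The deposited values are the authors' means of 2 libraries, on the log2 scale of normalized reads in a peak, with 1 value per group. The spread between the libraries of a group is therefore unknown, as is the depth of each library, so the differences below are given without an error or a test, and each is described beside the same quantity over the 45980 peaks on annotated chromosomes. All differences are *Arid1a cKO* minus control. Because the tissue was not sorted, fewer cells of a type and less of the mark per cell cannot be told apart.

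The log2 difference was below 0 at all 9 peaks of *Tnni1* and *Tnnt2*, from −0.08 to −2.85, the latter from a mutant mean under 3 reads. At the strong peaks over *Tnnt1* with *Tnni3*, *Tnnc1* and *Tpm1* it lay between −0.14 and 0.00. The 9 peaks were not uniformly lower. Those at −0.08 (*Tnni1*) and −0.17 (*Tnnt2*) lay between the 25th and the 75th percentile of peaks of like mean signal. Over the 17 peaks the median log2 difference was −0.17, against 0.01 over all peaks. The difference was below 0 at 12 peaks, above 0 at 4 and exactly 0 at 1, so that 70.6% lay below 0 against 48.3% of all peaks. At least 2-fold lower was 1 member peak of 17, where 10.6% of all peaks were, and at least 2-fold higher were 0, where 4.57% of all peaks were. With a limit of 1.5-fold, 3 member peaks were lower, where 17.3% of all peaks were, and 1 was higher, where 12% of all peaks were. The members' counts are near or below what the shares of all peaks give for 17 peaks. With means of 3 normalized reads or fewer set to 3, the median of the members remained −0.17.

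**Figure D1:**
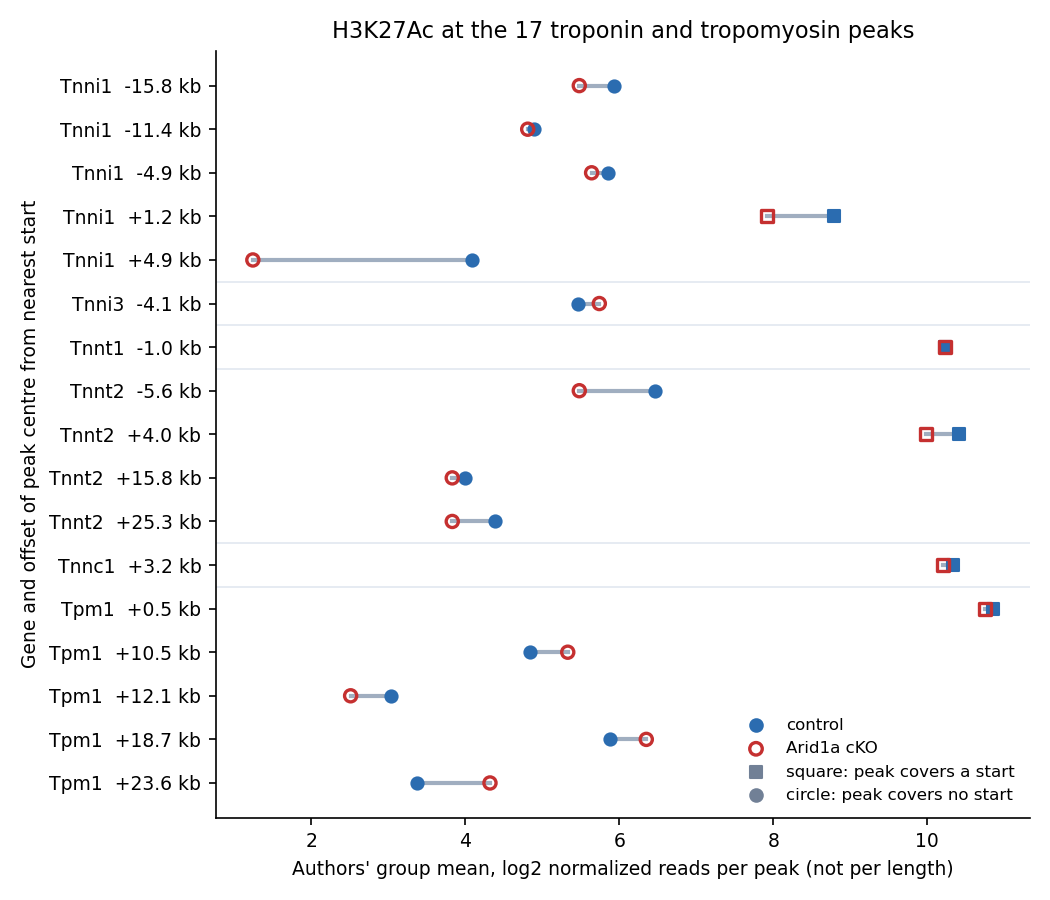
Authors' mean H3K27Ac signal of each of the 17 peaks in control (filled blue) and *Arid1a cKO* hearts (open red), in log2 normalized reads per peak, with the offset of the peak's centre from the nearest start in kb beside the gene. Squares are peaks that cover a transcription start and circles are peaks that do not; the *Tnni1* and *Tnnt2* peaks all have the red symbol to the left, from −0.08 to −2.85 on the log2 scale, the latter from a mutant mean under 3 reads.

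The promoters of 4 of the genes are shown because the peaks that cover them went from the lowest difference of the start-covering peaks (*Tnni1*) through an intermediate one (*Tnnt2*) to small ones (*Tnnc1* and *Tpm1*). Each is the 250 bases upstream of the start in RefSeq sequence (GRCm38.p6), on the gene's own strand, and all 6 genes had an entry in the table of promoters. Capitals mark matches to 5 motifs of cardiac transcription factors, searched on both strands with overlaps counted, which are the MEF2 site, the SRF CArG box, the estrogen-related receptor (ESRR) site AAGGTCA, the TEAD core GGAATG and the GATA site AGATAA. A match on the other strand is printed as its reverse complement.
*Tnni1*, chr1:135799171-135799420, plus strand: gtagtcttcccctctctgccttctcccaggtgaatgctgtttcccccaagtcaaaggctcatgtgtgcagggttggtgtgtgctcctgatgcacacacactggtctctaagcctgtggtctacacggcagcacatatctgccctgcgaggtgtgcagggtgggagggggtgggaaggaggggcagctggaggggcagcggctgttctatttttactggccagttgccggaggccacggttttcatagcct
*Tnnt2*, chr1:135836084-135836333, plus strand: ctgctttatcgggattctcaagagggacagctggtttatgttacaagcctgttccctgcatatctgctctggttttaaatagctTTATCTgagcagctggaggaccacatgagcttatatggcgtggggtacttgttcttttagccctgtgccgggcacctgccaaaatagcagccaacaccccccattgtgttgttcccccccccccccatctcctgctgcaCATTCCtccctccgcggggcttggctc
*Tnnc1*, chr14:31208062-31208311, plus strand: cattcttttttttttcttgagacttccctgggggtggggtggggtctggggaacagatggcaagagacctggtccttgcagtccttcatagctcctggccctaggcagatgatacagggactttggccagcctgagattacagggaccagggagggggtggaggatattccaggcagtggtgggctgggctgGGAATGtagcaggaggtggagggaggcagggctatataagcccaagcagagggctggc
*Tpm1*, chr9:67049214-67049463, minus strand: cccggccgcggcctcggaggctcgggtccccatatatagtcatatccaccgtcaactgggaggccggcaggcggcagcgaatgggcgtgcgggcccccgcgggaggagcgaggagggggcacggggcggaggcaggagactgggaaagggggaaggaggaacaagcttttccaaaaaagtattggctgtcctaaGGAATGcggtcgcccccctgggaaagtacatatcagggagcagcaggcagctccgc

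The *Tnni1* window held 0 matches, and so did the windows of *Tnni3* and *Tnnt1*. The *Tnnt2* window held a TEAD core that begins 27 bases upstream of the start and a GATA site that begins 166 bases upstream. A single TEAD core lay in the *Tnnc1* window, 58 bases upstream, and in the *Tpm1* window, 56 bases upstream. Windows of 250 bases upstream and 50 downstream were searched for all 32851 promoters of the table, of which 14.7% held the TEAD core and 11.2% the GATA site, while 4.72% held the ESRR site, 1.63% a CArG box and 0.557% a MEF2 site. The *Tpm1* window was rich in CpG dinucleotides, with 19 against a median of 6 over all promoters, whereas the *Tnnc1* window held 0.

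*Tnni1*, the slow skeletal troponin I gene, had the lowest single difference and the lowest summed ratio of the 6 genes, while the median over a gene's peaks was −0.45 here and −0.495 at *Tnnt2*. It lies on chromosome 1 of mm10 on the plus strand, with curated transcripts from 135799421 to 135810989. The peak over its starts (chr1:135798494-135802930) had an authors' mean of 8.79 in control and 7.92 in *Arid1a cKO* hearts, which is 443 and 242 normalized reads and a log2 difference of −0.87. The signal was thus 1.83-fold lower in the mutants at a peak that held 72.8% of the gene's control reads. Its difference lay at percentile 12.2 of all peaks, but peaks as strong as this one seldom differ as much. In the tenth of peaks with the highest mean signal, the 5th percentile of the difference was −0.57.

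The lowest *Tnni1* value was at a small peak in intron 4 (chr1:135803798-135804926), whose centre lies 4.85 kb downstream of the nearest start. Its authors' mean was 4.09 in controls on the log2 scale, which is 15.1 normalized reads per kb, against 2.09 per kb in *Arid1a cKO* hearts. The mean of the mutants is 2.36 reads over the whole peak and so under 3 reads, and the peak is given as at least 5.68-fold lower, from a signal that was low in controls too, at percentile 23.2 of all peaks. It is the only member peak past 2-fold.

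The central 300 bases of this intronic peak are shown because no other member peak differed by as much, in the plus strand of GRCm38.p6. None of the 5 motifs was found in them.
*Tnni1* intron 4, chr1:135804212-135804511: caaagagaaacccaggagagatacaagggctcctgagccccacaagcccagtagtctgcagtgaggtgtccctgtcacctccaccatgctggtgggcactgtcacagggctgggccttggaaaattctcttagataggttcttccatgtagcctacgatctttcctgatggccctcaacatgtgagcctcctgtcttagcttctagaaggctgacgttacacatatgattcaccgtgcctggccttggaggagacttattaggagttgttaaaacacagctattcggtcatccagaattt

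The centres of the 3 peaks upstream of *Tnni1* are intergenic by the curated annotation. The nearest one (chr1:135793512-135795526), 4.90 kb upstream, had 57.7 normalized reads in controls against 49.9 in *Arid1a cKO* hearts, a log2 difference of −0.21. The middle one (chr1:135787035-135788922) was level within −0.08. The farthest one (chr1:135782306-135784938), 15.8 kb upstream, had 61.0 and 44.6 normalized reads and a log2 difference of −0.45. This peak covers position 135783033, where the RefSeq gene record of *Tnni1* begins, although no curated transcript starts there. Along the gene the difference was thus largest in size from the start inward and smaller upstream.

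Estrogen-related receptors are nuclear receptors that drive metabolic genes in the mature heart, and a pair of their sites lay in the *Tnni1* peak over the starts. They are shown with 7 bases on each side, with the site in capitals.
*Tnni1*, chr1:135800315-135800321 (ESRR site), plus strand: aaggtccAAGGTCAtaggtgg
*Tnni1*, chr1:135800362-135800368 (ESRR site), plus strand: tatgaggAAGGTCAgttcctt
They lie 397 and 350 bases from the centre of the peak, outside its central 500 bases. The peaks over the starts of *Tnnt2* and *Tnnc1* held 4 and 2 ESRR sites. The share of all peaks with such a site anywhere in the peak was not counted. Within the central 500 bases of the 17 peaks, 0 held the ESRR site, where 11.3% of all peaks did, and 0 held a MEF2 site or a CArG box, where 2.58% and 2.59% did. The TEAD core was in the central window of 7 of the 17 peaks, where 26.4% of all peaks had it, and the GATA site in 6, where 21.5% did. The windows with a GATA site included 3 of the 5 *Tnni1* peaks.

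*Tnni3*, the cardiac troponin I gene, lies on the minus strand of chromosome 7 from 4518305 to 4522528, and its end is 2.33 kb upstream of the *Tnnt1* start. Its start and its whole body are under 1 peak of 15.0 kb (chr7:4509491-4524520), which also covers the start of *Tnnt1*. The centre of that peak is nearer to the *Tnnt1* start, at 1.03 kb against 5.52 kb, so the rule gives it to *Tnnt1*, and the signals of the 2 promoters cannot be told apart. The authors' mean was 10.23 in controls and 10.23 in *Arid1a cKO* hearts, or 1201 normalized reads in each, a difference of 0.00. The peak counted for *Tnni3* itself (chr7:4525706-4527456) is smaller and lies 4.05 kb upstream, in intron 8 of *Dnaaf3*. It had 44.0 normalized reads in controls against 53.4 in *Arid1a cKO* hearts, a log2 difference of 0.28. Over the starts, the values of the slow skeletal and the cardiac troponin I genes were −0.87 and 0.00, the latter in the peak shared with *Tnnt1*. These values are of the mark and not of RNA. The paper reports that *Tnni3* RNA was lower in P7 *Arid1a cKO* hearts, by RNA-Seq and by qPCR.

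*Tnnt1* has its start at 4515975 on the minus strand of chromosome 7, and the shared peak above is its only one. The body of *Tnnt1* beyond that peak is partly covered by a peak that belongs to *Ppp1r12c* by the rule (chr7:4504005-4505473), with a log2 difference of −0.06. The shared peak held 5 ESRR sites, more than any other member peak, at a width past that of 99.5% of all peaks, and a longer peak holds any short sequence more often.

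*Tnnt2*, the cardiac troponin T gene, is the neighbour of *Tnni1* on chromosome 1, on the same strand, with curated transcripts from 135836334 to 135852268. The peak over its starts (chr1:135833028-135848904) spans 15.9 kb and had 1361 normalized reads in controls against 1010 in the mutants. Its log2 difference of −0.43, or 1.35-fold, is below the 25th percentile (−0.19) and above the 5th percentile (−0.57) of peaks of like strength. This peak held 91.6% of the gene's control reads. A second *Tnnt2* peak (chr1:135829621-135831924), 5.56 kb upstream and inside intron 5 of *Lad1*, differed more, with 88.0 normalized reads in controls against 44.6 in the mutants. Its log2 difference of −0.98 is 1.97-fold and just short of the 2-fold limit. The remaining peaks are weak, at 16.0 and 21.0 normalized reads in controls against 14.2 in *Arid1a cKO* hearts at each, with log2 differences of −0.17 at the transcript end and −0.56 farther downstream.

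The peaks of *Tnni1* and *Tnnt2* spread over 80.5 kb (chr1:135782306-135862783), and this stretch holds 10 peaks of the table. The 9 that belong to the troponin genes all had log2 differences below 0, from −0.08 to −2.85, with a median of −0.45. The other one (chr1:135811518-135814637), nearest to *Lad1*, which encodes the basement membrane protein ladinin and lies between the troponin genes, was higher in *Arid1a cKO* hearts, at 78.8 against 45.3 normalized reads, a log2 difference of 0.80. It begins just past the end of *Tnni1* and lay 5.52 kb from the nearest start. The neighbouring *Tnni3* and *Tnnt1* pair on chromosome 7 had differences of 0.28 and 0.00.

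**Figure D2:**
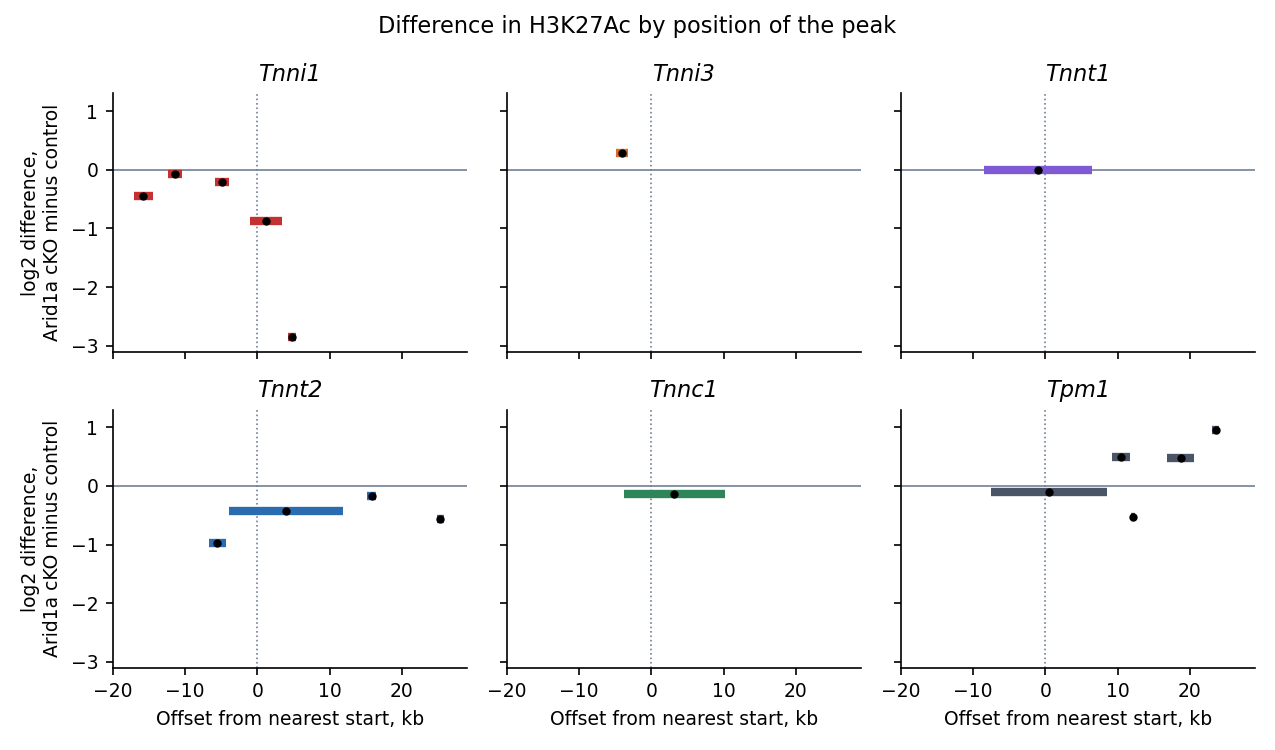
Log2 difference of *Arid1a cKO* minus control for each peak against the offset of the peak from the nearest transcription start in kb, with negative offsets upstream; bars span the width of the peak and dots mark its centre. The *Tnni1* and *Tnnt2* bars all lie below 0, while *Tpm1* has 3 of its downstream peaks above 0 and 1 at −0.53.

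*Tnnc1*, the troponin C gene of heart and slow muscle, lies on the plus strand of chromosome 14 from 31208312 to 31211729. A single peak of 14.1 kb (chr14:31204488-31218548) covers the gene and also the starts of *Nisch* and *Sema3g*, whose signal is part of its value. The peak had 1296 normalized reads in controls against 1176 in *Arid1a cKO* hearts. The log2 difference of −0.14 lies inside the middle range, from −0.19 to 0.06, of the peaks of like strength. The nearest peak of *Nisch* (chr14:31192877-31198612) had a log2 difference of −0.29.

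*Tpm1*, the α-tropomyosin gene, lies on the minus strand of chromosome 9 and has a start at 67049213 and an internal start at 67043871, both under a peak of 16.0 kb (chr9:67035355-67051377). This was the strongest member peak, with 1846 normalized reads in controls against 1722 in *Arid1a cKO* hearts and a log2 difference of −0.10. The weaker peaks inside the gene and at its far end went the other way at 3 of 4 places. The peak in intron 4 (chr9:67032105-67034605) had 28.6 normalized reads in controls against 40.2 in *Arid1a cKO* hearts, a log2 difference of 0.49. The one in intron 8 (chr9:67023281-67026977) had 58.9 and 81.6, a difference of 0.47. The farthest one (chr9:67019804-67020777), past the end of the gene, had an authors' mean of 3.37 in controls and 4.32 in mutants, a difference of 0.95, which is 1.93-fold and the highest among the members. In intron 6 the peak (chr9:67031520-67032057) had 8.22 and 5.70 normalized reads and a difference of −0.53, at the lowest signal of the 17.

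The *Tpm1* peaks were the ones in which a MEF2 site or a CArG box occurred, with 1 MEF2 site and 1 CArG box in the intron 8 peak and 1 MEF2 site and 2 CArG boxes in the peak over the starts. MEF2 and SRF are regulators of muscle genes. The 2 CArG boxes of the peak over the starts, the strongest member peak, are shown with 7 bases on each side.
*Tpm1*, chr9:67046374-67046383 (CArG box), plus strand: ttcctttCCTTATATGGaatatct
*Tpm1*, chr9:67041039-67041048 (CArG box), plus strand: ctcctgcCCTTATATGGtcaagaa

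Levels were compared between genes per length, as normalized reads per kb of the peaks that cover a start. In controls *Tpm1* was highest at 115 reads per kb, followed by *Tnni1* at 99.8, *Tnnc1* at 92.2, *Tnnt2* at 85.7 and the shared *Tnnt1* and *Tnni3* peak at 79.9. In *Arid1a cKO* hearts the order was *Tpm1* at 107, *Tnnc1* at 83.7, *Tnnt1* with *Tnni3* at 79.9, *Tnnt2* at 63.6 and *Tnni1* at 54.6. *Tnni1* thus went from rank 2 to rank 5 of the 5 peaks. Neighbours in the control order were 0.10 to 0.21 apart on the log2 scale, and with no spread between libraries none of these neighbours can be said to differ. The *Tnni1* peak is also narrower, at 4.44 kb, than the other 4, which span over 14 kb each.

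**Figure D3:**
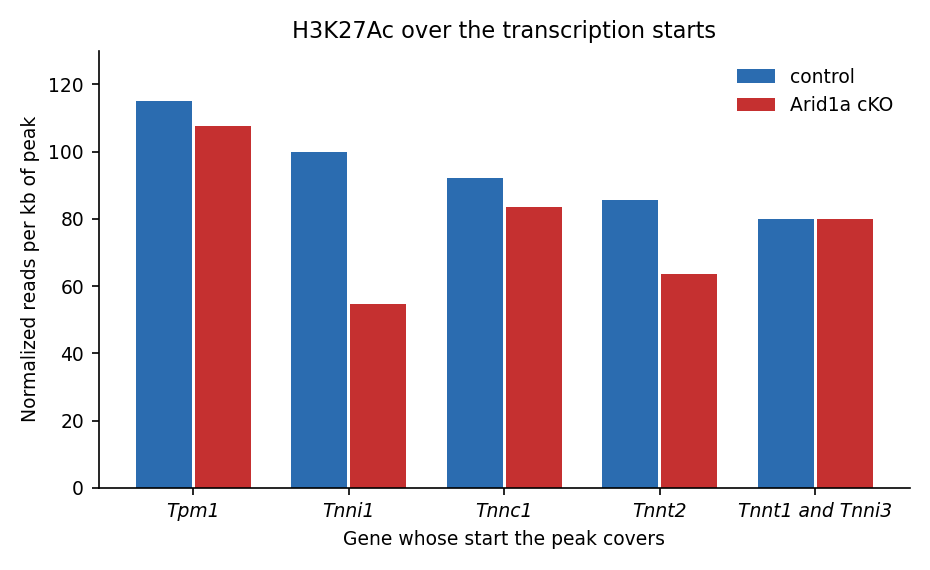
Authors' mean H3K27Ac signal in normalized reads per kb over the 5 peaks that cover a member's transcription start, in control (blue) and *Arid1a cKO* hearts (red); each bar is 1 group mean with no error available. *Tnni1* has the second bar in control order, at 99.8, and the lowest red bar, at 54.6.

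Over the table as a whole, peaks that cover a start seldom differed by much. Of 12022 such peaks 4.18% were at least 1.5-fold lower in *Arid1a cKO* hearts and 1.70% at least 2-fold lower, against 22.0% and 13.8% of the 33958 peaks that cover none. Of the 5 member peaks over a start, the *Tnni1* peak alone was past 1.5-fold, and 4 of the 5 were below 0, with a median of −0.14 against 0.01 over all such peaks. All 5 belong to the tenth of peaks with the highest mean signal, whose median was itself −0.05. Of all peaks of 10 kb or more, 61.0% were below 0, with a median of −0.06. In the lists of other sarcomere genes described below, peaks over a start were also past 1.5-fold lower at *Tmod4* (−1.87), *Myh7b* (−0.69), *Tcap* (−0.68) and *Lmod2* (−0.60). Only *Myl7* was past that limit in the other direction, from a control mean under 3 reads. Of the 12 member peaks away from a start, 8 were below 0 and 4 above, with a median of −0.19 against 0.02. The start-covering peaks held 93.3% of the members' control reads and 93.1% of their *Arid1a cKO* reads.

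Peaks with few reads scatter widely, so each member was also set against the tenth of all peaks with like mean signal. With the deposited means, 15 of the 17 member peaks lay between the 5th and the 95th percentile, and 9 between the 25th and the 75th. The *Tnni1* peak over the starts was outside. The intron 4 peak of *Tnni1* was outside as deposited, at −2.85 against a 5th percentile of −2.60, but its bound at 3 reads is −2.51, which falls short of that limit. With the same bound set in all peaks, a choice made after seeing the data, the 5th percentile was −2.05, so the place of this peak depends on how low means are treated. Of the other peaks outside the middle range, 3 were lower (1 of *Tnni1* and 2 of *Tnnt2*) and 3 were higher (all of *Tpm1*).

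**Figure D4:**
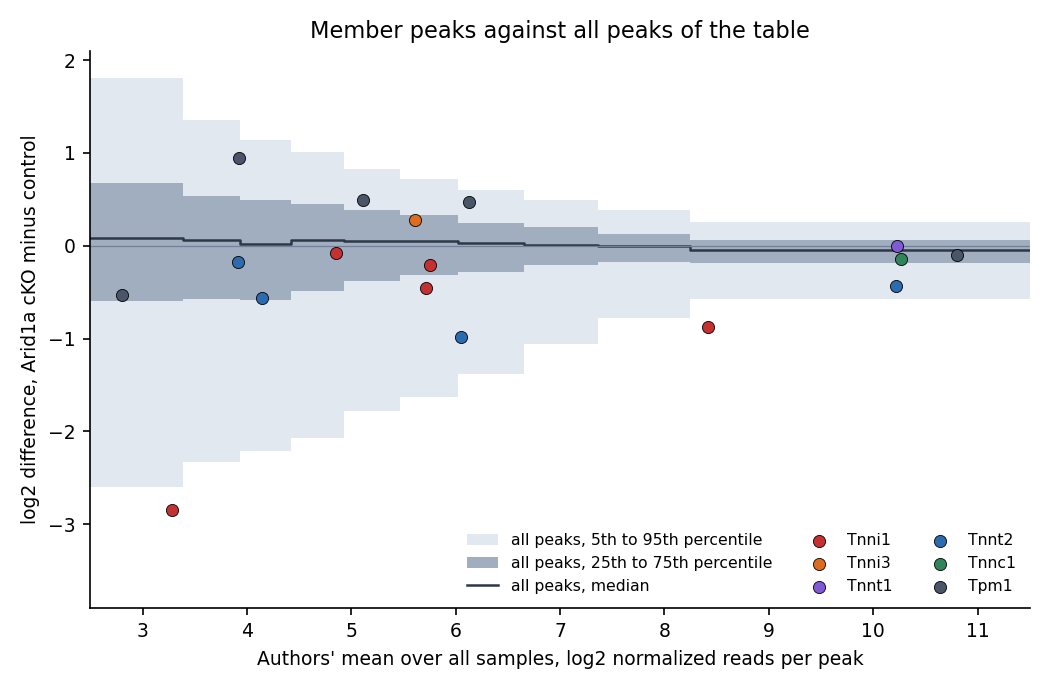
Log2 difference of *Arid1a cKO* minus control against the authors' mean signal over all samples in log2 normalized reads per peak; points are member peaks and the bands give the 5th to 95th and the 25th to 75th percentile of all peaks within 10 equal groups of peaks by mean signal. The *Tnni1* peak at −0.87 lies outside the wide band, and so does that at −2.85, whose mutant mean is under 3 reads and whose bound of −2.51 would lie inside the band drawn.

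Summed over each gene's peaks, normalized reads went from 608 in controls to 367 in *Arid1a cKO* hearts at *Tnni1*, a log2 ratio of −0.73. At *Tnnt2* the sum went from 1486 to 1083, a log2 ratio of −0.46. The ratio was −0.14 at *Tnnc1*, −0.06 at *Tpm1*, 0.00 at *Tnnt1* and 0.28 at *Tnni3*. The *Tnni3* value became 0.01 when every peak within 10 kb of the gene body was counted, which brings in the shared peak. Among the 15761 genes with a peak, the ratio of *Tnni1* stood at percentile 7.49 and that of *Tnnt2* at percentile 12.6, with a median over genes of 0.00. In the lists of other sarcomere genes described below, the ratio ran from −0.94 at *Tcap* to 2.31 at *Myl7*, the latter from 11.3 control reads. It was lower than at *Tnni1* also at *Myh7b* (−0.91), and lower than at *Tnnt2* also at *Lmod2* (−0.54) and *Tmod1* (−0.49). For *Tpm1* the sign rests on its wide peak, since without peaks of 10 kb or more, a choice made after seeing the data, its log2 ratio was 0.48.

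Other thin filament genes, a list of 14, had 43 peaks at 10 genes, of which 25 were below 0 and 18 above, with a median log2 difference of −0.08. At least 2-fold lower were 3 of the 43 peaks, where 10.6% of all peaks were. *Tmod4*, a tropomodulin that caps the pointed end of the filament, had 38.1 normalized reads in controls against 10.4 in *Arid1a cKO* hearts at the peak over its start, a log2 difference of −1.87. *Lmod2*, the leiomodin that elongates cardiac thin filaments, had 1 peak with 20.7 normalized reads in controls that was at least 6.89-fold lower in *Arid1a cKO* hearts, and another with a difference of −1.03. At least 2-fold higher were 2 peaks of *Lmod3*, the skeletal leiomodin, 1 at least 3.17-fold higher than a control mean under 3 reads and the other with a difference of 1.29. Over all peaks 4.57% were at least 2-fold higher, so both counts are near or below what the shares of all peaks give for 43 peaks.

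The remaining thin filament genes differed less at their starts. The peaks over the starts of the other tropomyosin genes had log2 differences of 0.36 at *Tpm2*, −0.02 at *Tpm3* and 0.05 at *Tpm4*, and those of the fast skeletal troponins 0.49 at *Tnni2* and 0.12 at *Tnnt3*. The values were −0.60 at *Lmod2*, −0.36 at *Lmod3* and −0.47 at *Tmod1*. No peak of the table was nearest to *Tnnc2*, *Actc1*, *Acta1* or *Neb*. A peak over *Actc1*, the cardiac actin gene, was nearest to another start and had a difference of −0.36, and likewise a peak over *Neb* had one of −0.58. Among the most similar sarcomere lists, the 17 peaks of 8 myosin and myosin-binding genes had a median of −0.15, and the 62 peaks of 9 Z-disc and M-band genes one of −0.355, with 46 of these below 0. The difference between these lists and the troponin and tropomyosin genes was not tested.

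Marker lists describe what else moved in the tissue. The 40 peaks of 7 cardiomyocyte markers had a median log2 difference of −0.125, with 25 below 0, and their summed signal went from 25684 normalized reads in controls to 23398 in *Arid1a cKO* hearts. The 43 peaks of 6 fibroblast markers had a median of 0.49, with 39 above 0, and a summed signal of 3100 in controls and 4270 in *Arid1a cKO* hearts. Endothelial markers had a median of 0.09 over 47 peaks (11020 and 11223 reads) and smooth muscle markers 0.39 over 8 peaks (498 and 839 reads). Most of the smooth muscle sum came from *Acta2* (423 and 753). *Tagln* was also higher in the mutants (29.3 and 48.3), while *Cnn1* (21.3 and 15.7) and *Myh11* (23.6 and 21.8) were lower. The paper proposes *Acta2* as a possible direct target of the coactivator YAP with TEAD in these mutants. Macrophage markers had a median of 0.31 over 4 peaks (105 and 154 reads), with no peak nearest to *Adgre1*. Of the fast skeletal muscle markers *Tnni2* and *Tnnt3* had 3 peaks with a median of 0.28 (226 and 275 reads), and *Myh1*, *Myh2*, *Myh4* and *Tnnc2* had none. The part of these shifts in the values at the troponin and tropomyosin genes was not tested. At *Arid1a* the peak over the promoter was level, at 10.65 in controls and 10.70 in *Arid1a cKO* hearts. This does not check the deletion, since neither the exons nor the RNA of *Arid1a* were measured here.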

How the data were processed

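H3K27Ac ChIP-Seq of 2 control and 2 *Arid1a cKO* P7 ventricles, with 2 input libraries per group, was mapped by the authors to mm10 with BWA 0.7.17-r1188. Peaks were called with HOMER against the merged inputs, kept when present in at least 2 samples, and compared with DiffBind 2.12.0 and DESeq2 1.24.0. The authors deposited log2 concentrations, that is, each peak's mean normalized read count on a log2 scale, given once for all samples together and once per group. How libraries were scaled and whether input reads were subtracted is not given in the sources used here. Further columns hold the authors' own log2 fold change, p-value and FDR, which were not used. Single libraries have 0 columns in the table. Depth is therefore unknown, and no interval or replicate error could be computed from the group means. The authors' own test of each peak was left unused, and no other was run.

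The 45980 peaks on 21 chromosomes were joined to 45756 curated RefSeq transcripts of GRCm38.p6, the assembly of mm10, by the start nearest to the peak's centre, and 7 peaks on unplaced sequences were left out. Group means were turned back to normalized reads for sums and reads per kb, and a mean at or under 3 reads was treated as 3 in the fold change of a single peak. All 6 genes were named with every peak. Of the other thin filament genes, those with a peak past 2-fold or over their start were given values, besides the listed sarcomere, marker and targeted genes. The members and lists were chosen with earlier results of these data known. Peak assignment, motif search and counts were tested on simulated data. Python 3.11.15 was used with numpy 2.4.6, pandas 2.3.3 and matplotlib 3.10.9. Alternatives covered the assignment of peaks to genes, centring, a pseudocount, a minimum signal and the fold limit.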

Additional observations from a re-analysis of the deposited data

How the results depend on the processing

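The median log2 difference over the member peaks was −0.17 and stayed below 0 under every alternative run. It was −0.21 with all RefSeq transcripts, predicted models included, −0.19 with protein-coding transcripts only, and −0.12 both with any peak within 10 kb of a gene body and with peaks of a mean of at least 20 reads. It was −0.18 after centring on the median of all peaks, −0.23 after centring within 10 equal groups of peaks by concentration, and −0.14 with a pseudocount of 10 reads. It was −0.21 without peaks of 10 kb or more and −0.155 without the peak under 3 reads, both chosen after seeing the data. The count of member peaks at least 2-fold lower was 1, and it became 2 with centring within the 10 groups, where the upstream *Tnnt2* peak passed as well, 3 with a limit of 1.5-fold, and 0 both with a mean of at least 20 reads and without the *Tnni1* peak under 3 reads. The count at least 2-fold higher went from 0 to 1 with a limit of 1.5-fold and to 3 with protein-coding transcripts only, where 32 peaks were assigned. The summed log2 ratio lay between −0.87 and −0.59 for *Tnni1* and between −0.77 and −0.41 for *Tnnt2*. For *Tnni3* it went from 0.28 to 0.01 with any peak within 10 kb of the gene body. For *Tpm1* it turned from −0.06 to 0.48 without peaks of 10 kb or more, since its weaker peaks then carry the sum. No paired analysis was possible because the deposited table gives 1 mean per group, and leaving out a library was not possible for the same reason. The unknown depth and the 2 libraries per group limit all values, most of all at peaks with few reads.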
